A study of Mus musculus with 7 samples.

Results

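The collagen genes of the mouse were examined in forebrain RNA of *Lhx6* mutants. Members were the protein-coding genes whose symbol consists of Col, a type number, the letter a and a chain number, and 44 of the 47729 genes in the table met this rule. The transcription factor Lhx6, of the LIM homeodomain class, is needed by cortical interneurons born in the medial ganglionic eminence. Forebrains were taken at post natal day 15 from *Lhx6*+/- (control) and *Lhx6*-/- (mutant) mice of the strain F1(C57BL/6 X 129Sv), all carrying the allele Lhx6tm2Vpa, so that controls also had a mutant copy, and the mutation was carried by every cell of the animal and not by interneurons alone. Each of the 4 control and 3 mutant libraries was made from total RNA of 2 pooled animals, and p-values therefore measure the spread between pools. In whole tissue, a change in the number of cells that express a gene and a change in its RNA per cell cannot be told apart.

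Collagens are extracellular proteins in which 3 chains wind into a triple helix. Types I, III and V form fibrils of connective tissue and the meninges, type IV forms the network of basement membranes around brain vessels and beneath the pia, type VI forms beaded microfibrils beside these membranes, and other types bind to fibrils, span the cell membrane or carry sugar chains. In the brain most collagen RNA is known from vascular cells, pericytes and meningeal fibroblasts, while some types, such as XIX and XXV, are known from neurons.

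Libraries held between 32556304 and 38069151 counts, and 3 counts, the most that a count of 0 allows, equal at most 0.0921 CPM, the count scaled to library size. The limit covers counting error only, since reads carried no molecular identifiers. By the column headers, controls were libraries 2, 3, 10 and 11 and mutants were libraries 5, 12 and 13, and where a value is given for each library it follows this order. The first principal component of all genes (39.6% of the variance) separated libraries 2, 3 and 5 from libraries 10 to 13, whatever their genotype, so each main result is also given within these runs of numbers, as the log2 ratio of mean CPM with 0.1 CPM added. *Lhx6* itself had 476 to 615 normalized counts (counts scaled to the mean effective library size) in controls and 70.1 to 76.6 in mutants. Summed RNA of forebrain neuron markers was 4731 to 5304 CPM in controls and 4763 to 5607 CPM in mutants, and that of cerebellum markers was at most 1.97 CPM in any library.

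All 44 collagen genes passed the filter of 10 counts in 3 libraries, and together they took 0.0705% to 0.0986% of counts in controls and 0.0951% to 0.143% in mutants. The ranges overlapped, since control library 2 lay above mutant library 12, and mutant library 5 was the highest. Levels per kilobase of exon spanned more than 2 orders of magnitude on the CPM scale, with a median of 0.980 CPM per kb over all libraries. *Col4a1* (25.1 CPM per kb), *Col4a2* (24.0), *Col6a1* (15.5) and *Col9a3* (11.6) were the 4 members above 10 CPM per kb. These were followed by *Col1a1*, the main chain of type I fibrils, at 6.81 CPM per kb. The next levels were 6.22 CPM per kb for *Col11a2*, 4.70 for *Col5a1* and 4.64 for *Col1a2*, and *Col4a1* and *Col4a2*, *Col1a1* and *Col11a2*, and *Col5a1* and *Col1a2* were neighbours whose levels differed by less than the SD between control libraries of the former. The ranks depended on the length used. Per kb of the longest transcript, *Col1a2* also passed 10 CPM (10.8) and lay above *Col1a1* (7.54). *Col26a1* reached 6.97 by that length, against 2.37 per kb of exon. At the other end, 23 members lay below 1 CPM per kb of exon, and *Col17a1*, a hemidesmosome collagen of epithelia, was lowest at 0.102. The chains of vascular basement membranes alone, *Col4a1* and *Col4a2*, made up 29.1% to 41.2% of the collagen counts of a library, and mutant library 5 was highest.

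Between genotypes, 5 collagen genes rose and 1 fell in the mutants at an adjusted p of 0.05 or less by edgeR's quasi-likelihood test, where p-values were adjusted over all 19684 genes tested. *Col10a1*, *Col4a4*, *Col9a1*, *Col18a1* and *Col6a1* were higher and *Col8a1* was lower. Over all genes tested, 2.97% were called higher, 1.87% were called lower and 4.85% were called in either direction. When the edgeR model held the run as a covariate, 15 collagen genes were called higher and 3 lower, against 11.2% of all genes in either direction, and the 6 genes above were among them. The others were *Col4a1*, *Col4a2*, *Col5a1*, *Col5a2*, *Col5a3*, *Col6a3*, *Col7a1*, *Col9a2*, *Col11a2* and *Col25a1*, which were higher, and *Col15a1* and *Col19a1*, which were lower. In libraries 10 to 13 alone 13 collagen genes were called higher and *Col19a1* was called lower (9.44% of all genes), and DESeq2 called 10 higher and 3 lower (9.17%). An unadjusted p of 0.05 or less was reached by 23 of the 44 members, against 18.2% of all genes. In 14 members every mutant library lay above every control library, and in 3 every mutant library lay below, where the shares over all genes were 10.7% and 9.00%.

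The log2 fold change of mutant against control was positive for 32 members and negative for 12, with a median of 0.28 and a range from −0.71 to 2.53, whereas the median of all genes was −0.01. The direction was the same in both runs of library numbers for 30 of the 32 positive and 10 of the 12 negative members, among them the 14 and 3 without overlap, for which it could not differ. The size differed between the runs, however, with a median of 0.51 in libraries 2, 3 and 5 and of 0.18 in libraries 10 to 13. Mutant library 5 had the highest collagen values, with 37 of the 44 members above the control mean and a median log2 difference from it of 0.54, against 0.22 in mutant library 12 and 0.14 in mutant library 13. Among the controls this difference was 0.24 in library 2, with 38 members above the control mean, and lay between −0.17 and −0.04 in the other controls. A control pool thus reached the collagen level of mutant library 12, and the plot of the 44 genes by library shows this overlap gene by gene.

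**Figure D1:**
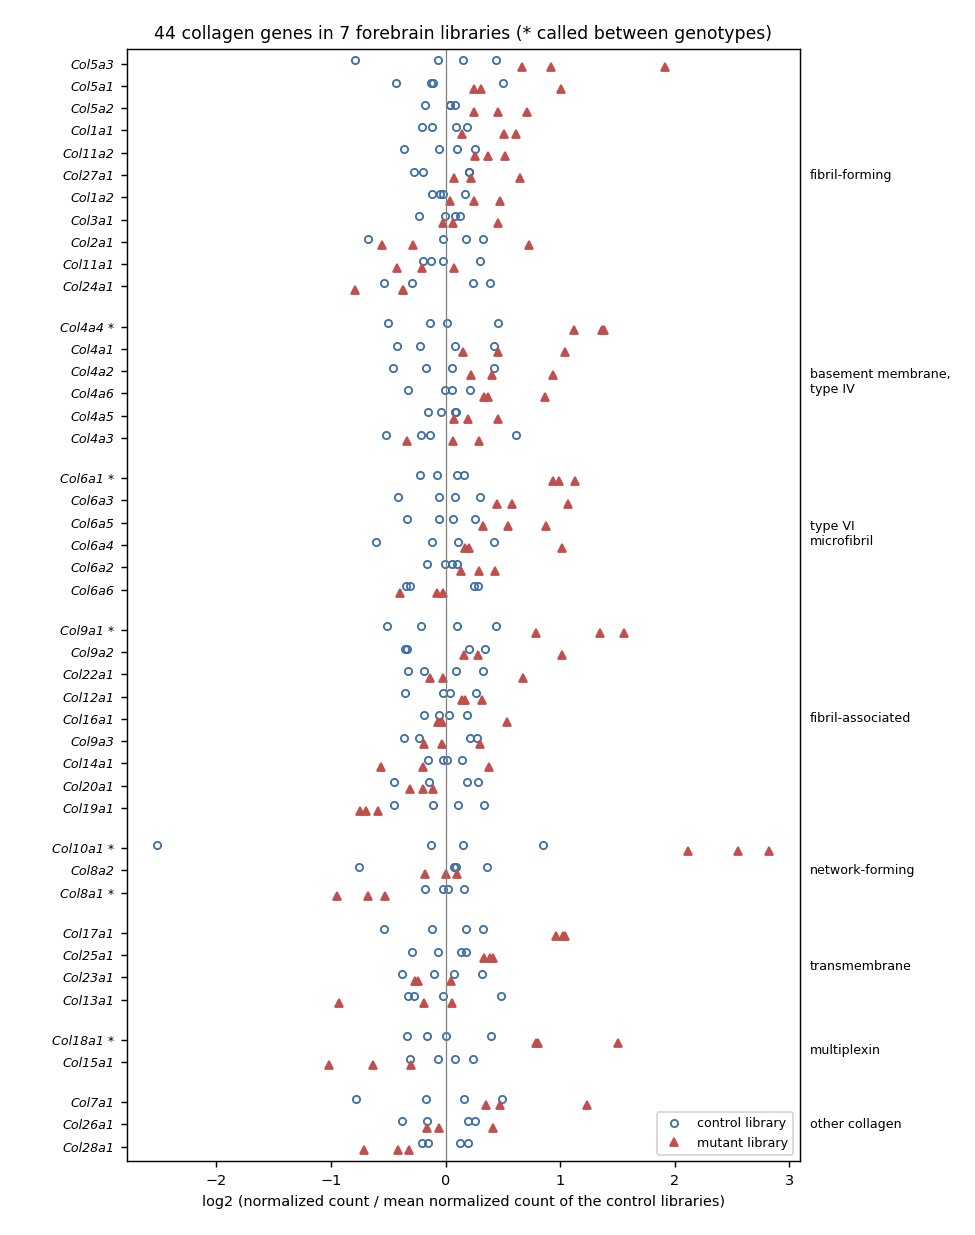
Each row is a collagen gene and each point a library, placed at the log2 ratio of its normalized count to the mean of the 4 control libraries; open circles are control and red triangles mutant libraries, rows are grouped by structural class, and an asterisk marks the 6 genes called between genotypes. Mutant points lie to the right of all control points in 14 rows, to the left of them in 3, and overlap with them in the rest.

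*Col6a1*, which encodes the α1 chain of type VI collagen, was about 2.03-fold higher in mutants, with 1682 ± 199.8 normalized counts in controls (SD, n = 4) and 3415 ± 237 in mutants (SD, n = 3). Its 4 control libraries, in the order 2, 3, 10 and 11, had 1801, 1443, 1599 and 1886 normalized counts, and its 3 mutant libraries, in the order 5, 12 and 13, had 3681, 3333 and 3230. The lowest mutant library was above the highest control library. The log2 fold change was 1.02 (SE 0.10, adjusted p = 0.00144, edgeR), and it was 1.18 among libraries 2, 3 and 5 and 0.91 among libraries 10 to 13. *Col6a1* was called in all 15 alternative analyses, with an adjusted p of at most 0.00917.

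The chains that join α1 in type VI trimers were not called by edgeR without a covariate. *Col6a2*, the α2 chain, had 581 to 696 normalized counts in controls and 712 to 879 in mutants, without overlap, and a log2 fold change of 0.29 (SE 0.11, adjusted p = 0.195, edgeR). *Col6a3*, the large α3 chain, had 168 to 275 in controls and 306 to 470 in mutants, with a log2 fold change of 0.73 (SE 0.20, adjusted p = 0.0862, edgeR). It was called by DESeq2 (adjusted p = 0.0123), by edgeR with the run as a covariate (0.0371) and in libraries 10 to 13 alone (0.0374). *Col6a5*, an α3-like chain, gave 0.60 (SE 0.21, adjusted p = 0.175, edgeR), again without overlap between the genotypes. The other α3-like chains overlapped, with log2 fold changes of 0.52 for *Col6a4* and −0.15 for *Col6a6*. In all, 4 of the 6 type VI genes had every mutant library above every control library, against 10.7% of all genes. Summed type VI RNA was 66.3 to 82.6 CPM in controls and 125 to 149 CPM in mutants. Most of this sum was *Col6a1*, with mean normalized counts of 1682 in controls and 3415 in mutants. The next highest chain, *Col6a2*, had means of 650 and 795.

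A stretch near the *Col6a1* start is shown because *Col6a1* alone among the collagen windows examined held the AP-1 sequence TGANTCA. It lies on the minus strand at chr10:76726117-76726146 (GRCm38.p6, RefSeq) and is printed 5′ to 3′ with the match in capitals. The match ends 84 bases before the RefSeq start of *Col6a1*, but the annotation deposited with the counts places the start further upstream, and the match lies 34 to 40 bases after that start.
Col6a1: atgctgatgctgTGACTCActcagctttga

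Type IV collagen has 6 chains, whose genes lie head to head in 3 pairs. *Col4a1* and *Col4a2* build the ubiquitous network, *Col4a3*, *Col4a4* and *Col4a5* the network of kidney, lung and some specialised membranes, and *Col4a5* and *Col4a6* that of other epithelia and smooth muscle. Of the 6, *Col4a4* was called and was 2.45-fold higher in mutants. It had 62.5, 32.1, 41.3 and 45.7 normalized counts in controls and 98.7, 117 and 118 in mutants, without overlap. On the log2 scale the change was 1.29 (SE 0.23, adjusted p = 0.0170, edgeR), and it was 1.01 among libraries 2, 3 and 5 and 1.37 among libraries 10 to 13. The call was lost without control library 10 (adjusted p = 0.0557), mutant library 12 (0.0726) or mutant library 13 (0.0883).

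Its partner *Col4a3* was not called. *Col4a3* had 75.7, 45.2, 34.5 and 42.7 normalized counts in controls and 51.7, 39.3 and 60.6 in mutants, so that the genotypes overlapped. Its log2 fold change was 0.03 (SE 0.30, adjusted p = 0.973, edgeR), and an unstranded count would also take up RNA of an opposite-strand gene that overlaps 5.65% of the *Col4a3* exon length. The annotated starts of both genes, which are transcribed in opposite directions, are separated by 71 bases on chromosome 1. These bases are shown in capitals within chr1:82586820-82586950 (GRCm38.p6, RefSeq), read on the minus strand towards *Col4a4*.
Col4a3 and Col4a4: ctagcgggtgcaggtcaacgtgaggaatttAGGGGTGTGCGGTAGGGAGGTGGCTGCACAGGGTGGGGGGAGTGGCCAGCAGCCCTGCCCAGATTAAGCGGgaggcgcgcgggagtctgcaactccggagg

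*Col4a1* and *Col4a2*, the chains of the vascular network, had nearly equal levels per kb in every library. *Col4a1* had 7333, 5766, 4060 and 4662 normalized counts in controls and 11270, 6071 and 7498 in mutants. *Col4a2* had 6315, 4890, 3420 and 4173 in the same controls and 9013, 5493 and 6234 in the same mutants. Mutant library 5 was highest for both genes, but control library 2 lay above mutant library 12, and for *Col4a2* also above mutant library 13, so the genotypes overlapped. The log2 fold changes were 0.60 (SE 0.25, adjusted p = 0.238) and 0.56 (SE 0.23, adjusted p = 0.236) by edgeR. Over 15 alternative analyses they ranged from 0.33 to 0.78 and from 0.33 to 0.73. Within libraries 10 to 13 the 2 mutant libraries lay above both controls for each gene, with log2 changes of 0.64 and 0.63 against 0.78 and 0.69 among libraries 2, 3 and 5, and both genes were called when these libraries were tested alone or when the run of library numbers was a covariate. Their first exons overlap by 22 bases on opposite strands, shown in capitals within chr8:11312801-11312830 (GRCm38.p6, RefSeq), on the *Col4a1* strand.
Col4a1 and Col4a2: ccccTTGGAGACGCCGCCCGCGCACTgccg

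The pair on the X chromosome, whose starts are 1308 bases apart, was not called by edgeR or in any of 15 alternative analyses. *Col4a5* had 388 to 458 normalized counts in controls and 454 to 590 in mutants, with overlap and a log2 fold change of 0.25 (SE 0.12, adjusted p = 0.342, edgeR). *Col4a6* had 76.3 to 111 in controls and 121 to 174 in mutants, without overlap, and 0.55 (SE 0.19, adjusted p = 0.177, edgeR).

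**Figure D2:**
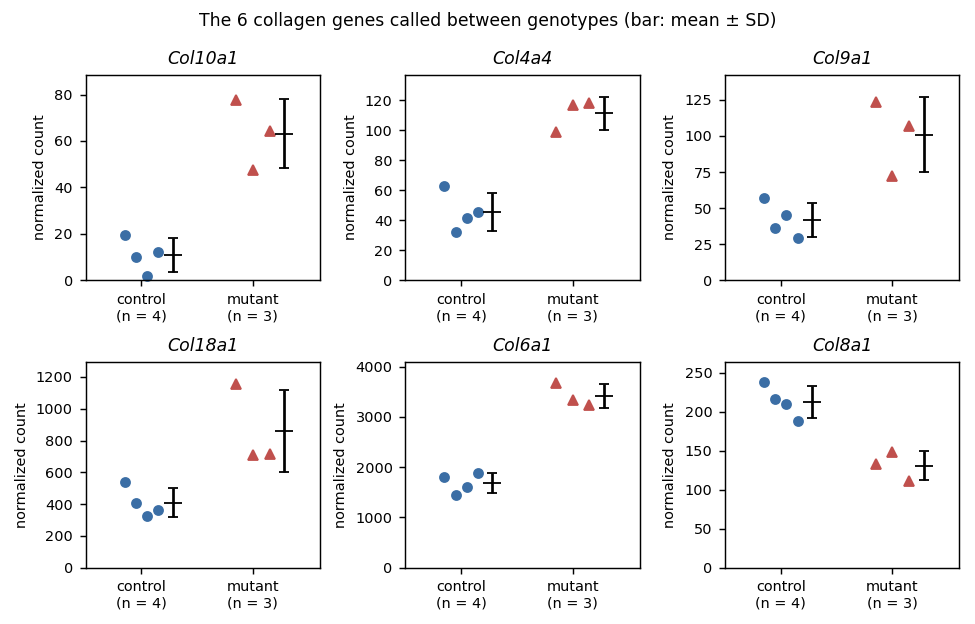
Normalized counts of the 6 collagen genes called between genotypes in each of the 4 control (blue circles) and 3 mutant (red triangles) libraries, with the mean and SD of each group as black bars; every axis starts at 0. The groups do not overlap in any panel, and *Col8a1* is the one gene with lower mutant values.

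Type IX collagen, made of 3 different chains, coats fibrils of cartilage and the vitreous. Its chains differed widely in level, as *Col9a3* stood at 11.6 CPM per kb, *Col9a2* at 3.64 and *Col9a1* at 0.372. *Col9a1* had 57.0, 36.2, 45.1 and 29.5 normalized counts in controls and 124, 72.5 and 107 in mutants. Each mutant library was above each control library, with a log2 fold change of 1.27 (SE 0.27, adjusted p = 0.0358, edgeR) that was 1.34 among libraries 2, 3 and 5 and 1.19 among libraries 10 to 13. The *Col9a1* call was lost without control library 3 (adjusted p = 0.0676), 10 (0.0816) or 11 (0.0770), or mutant library 5 (0.117) or 13 (0.142).

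*Col9a3* overlapped between genotypes, with 1231 to 1909 normalized counts in controls, 1387 to 1944 in mutants and a log2 fold change of 0.04 (SE 0.18, adjusted p = 0.942, edgeR). *Col9a2* gave 0.54 (SE 0.25, adjusted p = 0.309, edgeR), also with overlap, and was called with the run as a covariate (adjusted p = 0.00331). Another fibril-associated gene, *Col19a1*, known from hippocampal interneurons and other neurons, had 716, 416, 524 and 610 normalized counts in controls and 377, 350 and 337 in mutants. All 3 mutant libraries were below all controls, yet the log2 fold change of −0.67 (SE 0.18, adjusted p = 0.0729, edgeR) missed the threshold. The *Sst* and *Pvalb* genes of interneurons fell by 3.19 and 3.05 on the log2 scale in the same libraries, and their part in the *Col19a1* values was not tested. *Col19a1* passed in 4 alternatives, namely DESeq2, the fit with the run of library numbers, libraries 10 to 13 alone and the fit without control library 3 (adjusted p = 0.0192). The other fibril-associated genes, *Col12a1*, *Col14a1*, *Col16a1*, *Col20a1* and *Col22a1*, had log2 fold changes between −0.20 and 0.22 and overlapped.

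Of the 3 network-forming collagens, 1 rose and 1 fell. *Col10a1*, the collagen of hypertrophic cartilage, which shares 18 exon bases with *Nt5dc1* on the opposite strand, had 19.7, 10.0, 1.92 and 12.2 normalized counts in controls and 77.6, 47.6 and 64.4 in mutants. The lowest mutant library was more than 2-fold above the highest control, and control library 10 held 2 reads. The log2 fold change was 2.53 (SE 0.52, adjusted p = 0.0288, edgeR), the widest of the family, at a level of only 0.299 CPM per kb. It was 2.14 among libraries 2, 3 and 5 and 2.49 among libraries 10 to 13. The *Col10a1* call was lost without control library 3 (adjusted p = 0.0553) or 11 (0.0658), or mutant library 5 (0.0865), 12 (0.0667) or 13 (0.108). The 300-base window around its start is one of 5 collagen windows with a TATA box, shown in capitals (chr10:34389731-34390010, plus strand, GRCm38.p6, RefSeq).
Col10a1: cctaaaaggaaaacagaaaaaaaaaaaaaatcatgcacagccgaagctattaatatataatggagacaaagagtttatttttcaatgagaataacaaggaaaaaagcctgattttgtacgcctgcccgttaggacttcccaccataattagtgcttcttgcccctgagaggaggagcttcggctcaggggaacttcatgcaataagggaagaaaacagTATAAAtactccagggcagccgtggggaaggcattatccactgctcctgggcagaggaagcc

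*Col8a1*, a short-chain collagen of vessel walls and the subendothelium, was the one collagen gene that fell by edgeR without a covariate, while DESeq2 also called *Col15a1* and *Col19a1* lower. It had 238, 216, 210 and 188 normalized counts in controls and 133, 148 and 111 in mutants, without overlap. The log2 fold change was −0.71 (SE 0.15, adjusted p = 0.0333, edgeR), with −0.75 and −0.61 within the runs. The *Col8a1* call held in 6 of 15 alternatives. It was lost in libraries 10 to 13 alone (adjusted p = 0.0631), and leaving out any library raised the adjusted p above the threshold, to 0.0727 without control library 2, 0.0514 without 3, 0.0837 without 10, 0.0507 without 11, 0.101 without mutant library 5, 0.0663 without 12 and 0.159 without 13. *Col8a2*, its usual partner chain, gave a log2 fold change of −0.02 (SE 0.26, adjusted p = 0.983, edgeR) that was 0.0047 with upper quartile scaling.

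Of the multiplexins, basement membrane collagens that carry sugar chains, *Col18a1* was 2.11-fold higher in mutants. *Col18a1*, whose C-terminal fragment is endostatin, had 536, 409, 323 and 365 normalized counts in controls and 1157, 707 and 714 in mutants. Mutant library 5 was the highest, and all mutants lay above all controls. This gave a log2 fold change of 1.07 (SE 0.22, adjusted p = 0.0307, edgeR), and it was 1.29 among libraries 2, 3 and 5 and 1.04 among libraries 10 to 13. The *Col18a1* call was lost without control library 3 (adjusted p = 0.0595), 10 (0.0778) or 11 (0.0773), or mutant library 5 (0.0771), 12 (0.0580) or 13 (0.0691). Without mutant library 5 its log2 fold change was 0.81. *Col15a1* had 260 to 380 in controls and 159 to 262 in mutants, with a log2 fold change of −0.62 (SE 0.19, adjusted p = 0.125, edgeR), and control library 10 just below mutant library 5. It was called lower by DESeq2 (adjusted p = 0.0339) and by edgeR with the run as a covariate (0.0275).

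None of the 11 fibril-forming genes was called by edgeR without a covariate, and 3 were called by DESeq2, against 9.17% of all genes. A positive log2 fold change was found in 9, against 9404 of all 19684 genes. An unadjusted p of 0.05 or less was reached by 6, against 18.2% of all genes. *Col5a3*, the minor chain of type V fibrils, had 103, 126, 53.7 and 88.4 normalized counts in controls and 351, 147 and 175 in mutants. It did not overlap, and mutant library 5 was 2-fold or more above the other mutants. Its log2 fold change of 1.28 (SE 0.35, adjusted p = 0.0840, edgeR) passed the threshold with DESeq2 and in both analyses by run of library numbers. Over the 15 alternative analyses it ranged from 0.81 to 1.51. *Col5a2* and *Col11a2* did not overlap either, with log2 fold changes of 0.48 (SE 0.13) and 0.39 (SE 0.14). *Col5a1* gave 0.57 (SE 0.25, from 0.29 to 0.78 over the alternatives), with control library 2 above 2 of the 3 mutants. These 3 genes were called by edgeR with the run as a covariate (adjusted p = 0.0142, 0.0173 and 0.0238, in the order named).

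The chains of type I, the bulk of meningeal fibrils, overlapped between genotypes. *Col1a1* had 1272, 1203, 1579 and 1477 normalized counts in controls and 2117, 1968 and 1529 in mutants, with a log2 fold change of 0.44 (SE 0.14, adjusted p = 0.120 by edgeR and 0.0389 by DESeq2). *Col1a2* had 1740 to 2128 in controls and 1944 to 2627 in mutants, with 0.27 (SE 0.11, adjusted p = 0.265, edgeR). In both genes mutant library 13 lay within the control range, and the log2 changes were 0.77 and 0.55 among libraries 2, 3 and 5 and 0.19 and 0.08 among libraries 10 to 13. The remaining fibril-forming genes, *Col2a1*, *Col3a1*, *Col11a1*, *Col24a1* and *Col27a1*, overlapped and ranged from −0.50 to 0.34.

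Of the transmembrane collagens, *Col25a1*, a neuronal collagen needed for motor innervation, was highest at 3.06 CPM per kb. It had 1021 to 1411 normalized counts in controls and 1574 to 1662 in mutants, without overlap, and a log2 fold change of 0.38 (SE 0.11, adjusted p = 0.109, edgeR), and was called by DESeq2 (adjusted p = 0.0385) and with the run as a covariate (0.0439). *Col17a1* had 10.0 to 18.3 in controls and 28.4 to 30.0 in mutants, with 1.01 (SE 0.29, adjusted p = 0.0899, edgeR), and was called only where 10 counts were required in all 7 libraries. *Col13a1* and *Col23a1* overlapped, with −0.29 and −0.15. Outside these classes, *Col7a1*, the anchoring fibril collagen of skin, gave 0.75 (SE 0.31, adjusted p = 0.252, edgeR; 0.0109 with the run as a covariate), *Col26a1* gave 0.09 at the highest level of its class (2.37 CPM per kb), and *Col28a1*, known from peripheral nerve, gave −0.47 (SE 0.22) with all mutants below all controls.

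**Figure D3:**
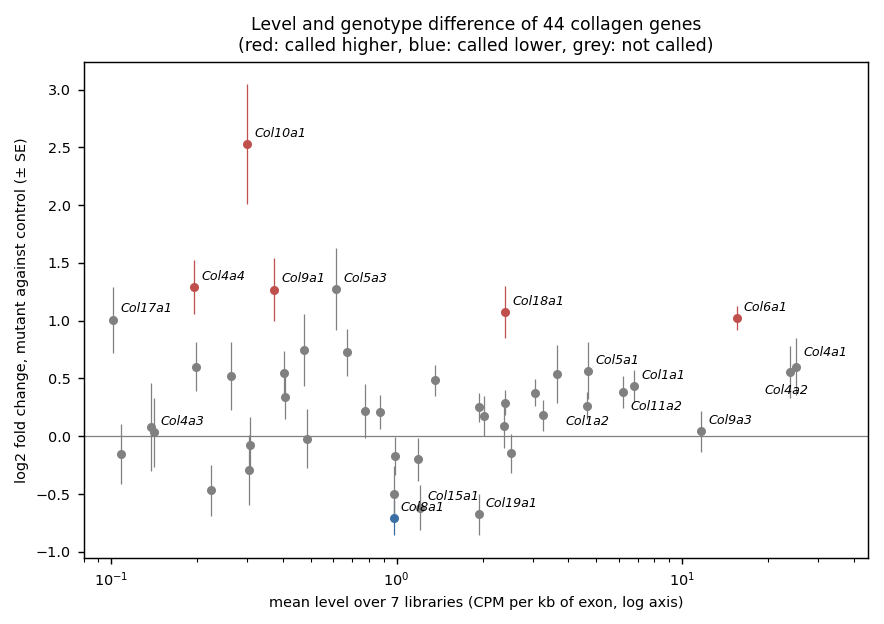
Log2 fold change of mutant against control with its SE against the mean level over 7 libraries in CPM per kb of exon, on a log axis, for the 44 collagen genes; red marks genes called higher, blue called lower and grey not called. Called genes occur from 0.195 CPM per kb (*Col4a4*) to 15.5 CPM per kb (*Col6a1*). *Col4a1* and *Col4a2*, the highest members, have log2 fold changes of 0.60 (SE 0.25) and 0.56 (SE 0.23) and are not called by edgeR without a covariate.

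Because chains of a type assemble together, ratios of their levels per kb of exon were compared library by library, with an exact two-sided permutation test over the 35 possible regroupings. Its p doubled the smaller tail and could not go below 0.0571, and p-values were also adjusted over the 8 ratios computed. *Col4a1* to *Col4a2* was close to 1 in every library, at 0.993 to 1.06 in controls and 0.982 to 1.11 in mutants (exact p = 0.514). By contrast, *Col4a3* to *Col4a4* was 1.29, 1.50, 0.891 and 0.994 in controls and 0.558, 0.358 and 0.545 in mutants. *Col6a1* to *Col6a2* was 4.37 to 5.53 in controls and 7.96 to 8.62 in mutants. *Col9a1* to *Col9a3* rested on the low counts of *Col9a1* and ran from 0.0150 to 0.0279 in controls and from 0.0397 to 0.0528 in mutants. The ratios of *Col4a3* to *Col4a4*, *Col6a1* to *Col6a2*, *Col9a1* to *Col9a3*, *Col9a2* to *Col9a3* and *Col4a5* to *Col4a6* did not overlap between genotypes, each with the smallest exact p (0.0571, adjusted p = 0.0914). *Col1a1* to *Col1a2* and *Col6a3* to *Col6a1* overlapped (exact p = 0.171 for each).

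**Figure D4:**
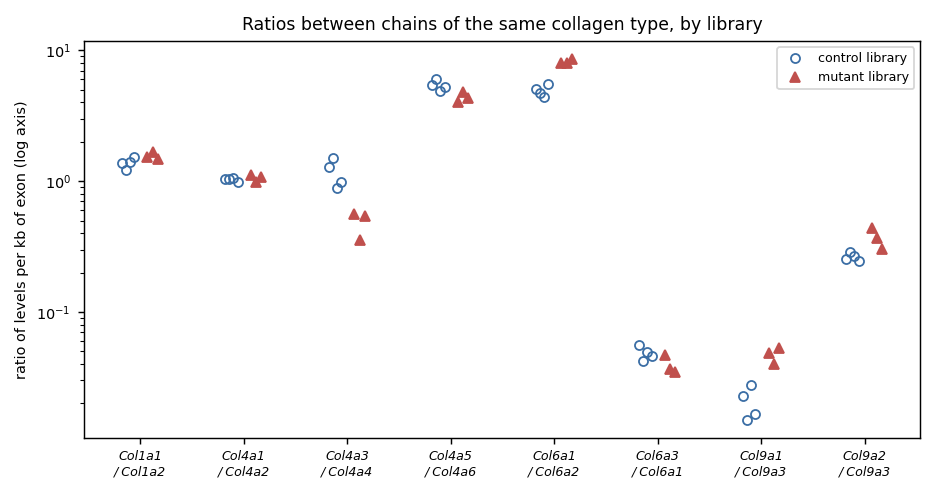
Ratio of levels per kb of exon between chains of a collagen type, on a log axis, with open circles for control and red triangles for mutant libraries. Ratios of *Col4a1* to *Col4a2* coincide near 1, whereas *Col4a3* to *Col4a4* lies at 0.891 to 1.50 in controls and 0.358 to 0.558 in mutants.

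RefSeq windows of 300 bases around the start (250 before and 50 after) were found for 35 of the 44 members, with 38 windows in all, since *Col9a1*, *Col18a1* and *Col6a2* each had a second start that the gene counts do not separate. Both strands were searched for 4 short motifs, and no match overlapped another in the windows printed. The GC box GGGCGG was found in 60.5% of collagen windows and in 35.7% of all 32851 windows. The CCAAT box (CCAAT) occurred in 34.2% of collagen windows and 37.4% of all, and the TATA box (TATAAA) in 13.2% and 13.6%. The AP-1 sequence was present in 2.63% of collagen windows, that of *Col6a1*, and in 7.81% of all. Such matches describe letters and not binding.

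Genes that act on collagens were examined in 4 lists with 66 tested genes. Of these, 8 were called higher and 0 lower by edgeR, against 19 and 1 by DESeq2, where edgeR called 2.97% of all genes higher. None of the 8 overlapped between genotypes, which fixes their direction within each run of library numbers, and their log2 changes ran from 0.63 to 2.30 among libraries 2, 3 and 5 and from 0.33 to 1.91 among libraries 10 to 13. Among 29 genes of collagen synthesis and processing, 2 rose and the median log2 fold change was 0.12. These were lysyl oxidase-like enzymes, which cross-link collagen. *Loxl2* had 128 to 179 normalized counts in controls and 289 to 468 in mutants (log2 fold change 1.26, SE 0.19, adjusted p = 0.00882, edgeR), and *Loxl1* had 104 to 172 and 228 to 307 (0.89, SE 0.19, adjusted p = 0.0325, edgeR). In contrast, *Serpinh1*, the collagen chaperone Hsp47, had 1213 to 1340 in controls and 1268 to 1286 in mutants, with a log2 fold change of −0.01 (SE 0.07) that was 0.019 with upper quartile scaling.

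Among collagen receptors, 2 of the 10 tested rose, and the median was 0.44. *Itga2*, the α2 integrin subunit, had 3.01 to 4.39 normalized counts in controls and 17.6 to 28.4 in mutants (log2 fold change 2.45, SE 0.38, adjusted p = 0.00931, edgeR). Its counts were 4, 3, 4 and 4 in controls and 19, 17 and 30 in mutants, so it passed the filter through the mutant libraries alone. *Ddr2*, a receptor tyrosine kinase for fibrillar collagen, gave 0.57 (SE 0.13, adjusted p = 0.0483, edgeR), and this call was lost when any of the 7 libraries was left out (adjusted p from 0.0533 to 0.144) and in libraries 10 to 13 alone (0.0508). *Gp6* was below the filter. Of the genes for collagen breakdown, 10 of 13 were tested and edgeR without a covariate called 1, the metalloprotease inhibitor *Timp1*. It rose from 13.2 to 27.4 normalized counts in controls to 44.5 to 144 in mutants (2.16, SE 0.40, adjusted p = 0.0200, edgeR). DESeq2 also called *Timp2* higher (0.38, SE 0.10, adjusted p = 0.00316), against an adjusted p of 0.0556 by edgeR, and its groups did not overlap. The collagenases *Mmp1a*, *Mmp8* and *Mmp13* were at or near 0 in all libraries and were not tested.

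Among 17 tested genes of collagen-binding matrix, 3 rose and the median was 0.44. *Bgn* (biglycan) had 651 to 726 normalized counts in controls and 1003 to 1221 in mutants (0.66, SE 0.10, adjusted p = 0.00752, edgeR). *Lama2*, a laminin chain, gave 0.68 (SE 0.13, adjusted p = 0.0253, edgeR) and *Nid1*, which links laminin to type IV collagen, 0.52 (SE 0.10, adjusted p = 0.0260, edgeR). Fibril-binding *Dcn*, *Fmod* and *Ogn* had negative log2 fold changes from −0.39 to −0.21, while *Lum*, of the same list, gave 0.20. None of these was called by edgeR without a covariate or by DESeq2. *Dcn* had 824 normalized counts in control library 10, against 380 to 410 in the other controls and 369 to 392 in mutants. In the fits without one library, the calls of *Loxl2* and *Bgn* were kept. That of *Itga2* was kept in the fits without a control library. Without a mutant library *Itga2* was not tested, since fewer than 3 libraries then held 10 counts. *Loxl1* was lost without control library 2 or 10 or mutant library 12 or 13 (adjusted p from 0.0701 to 0.155). *Timp1* was lost without control library 10 or 11 or mutant library 5 or 13 (0.0507 to 0.0844). *Nid1* was lost without control library 10 or any mutant library (0.0549 to 0.127), and *Lama2* without any mutant library (0.0708 to 0.109).

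**Figure D5:**
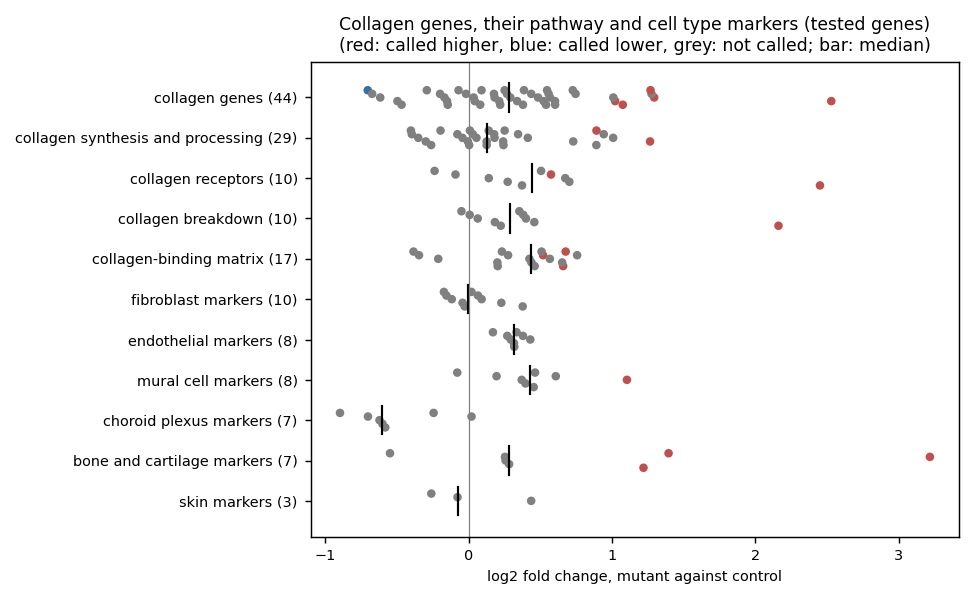
Log2 fold change of mutant against control for each tested gene of the collagen family, of 4 lists of genes that act on collagens and of 6 cell type marker lists, with red for genes called higher, blue for called lower, grey for not called and a black bar for the median. The collagen, receptor, breakdown, matrix, endothelial, mural, and bone and cartilage medians are positive, from 0.28 to 0.44. The synthesis and processing median is 0.12, the fibroblast median is near 0, the skin median is −0.08 and the choroid plexus median is −0.60.

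Markers of cells that make collagen were read beside these results, and their part in the collagen values was not tested. None of 10 fibroblast markers was called by edgeR or DESeq2, and 0 had an unadjusted p of 0.05 or less. Their median log2 fold change was −0.0048, and their summed RNA was 92.2 to 134 CPM in controls and 101 to 116 CPM in mutants. The runs of library numbers differed in direction for *Slc6a13*, *Slc22a6*, *Slc47a1*, *Aldh1a2*, *Slc13a4*, *Foxc2* and *Crabp2*. The log2 changes of these genes were 0.30 to 0.80 among libraries 2, 3 and 5 and −0.60 to −0.33 among libraries 10 to 13. *Islr* and *Foxd1* were positive and *Cdh11* was negative in both runs. Of 8 endothelial markers 0 were called by edgeR and 2 by DESeq2, 4 had an unadjusted p of 0.05 or less, and all 8 were positive with a median of 0.32. Their summed RNA was 242 to 275 CPM in controls and 306 to 327 CPM in mutants. Of 8 mural cell markers 1 was called by edgeR and 4 by DESeq2, and 7 were positive with a median of 0.42. An unadjusted p of 0.05 or less was reached by 5, against 18.2% of all genes. The edgeR call was *Tagln*, a smooth muscle actin-binding protein, which rose (1.10, SE 0.21, adjusted p = 0.0233, edgeR). *Acta2* and *Myh11*, of the same list, gave 0.19 and −0.08 and overlapped. The mural sum was 206 to 235 CPM in controls and 253 to 315 CPM in mutants. The endothelial and mural sums thus did not overlap between genotypes and were higher in mutants. *Col4a1* and *Col4a2* overlapped between genotypes and were higher in mutants within each run of library numbers, and a link to these sums was not tested.

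Markers of choroid plexus summed to 131 to 282 CPM in controls and 65.6 to 217 CPM in mutants. Of these 7 markers, 0 were called by edgeR or DESeq2 and 1 had an unadjusted p of 0.05 or less, with a median of −0.60. Bone and cartilage, the tissues *Col10a1* and *Col9a1* are best known from, had markers that summed to 5.69 to 7.10 CPM in controls and 10.5 to 11.3 CPM in mutants. *Dmp1* (1.22, SE 0.17, adjusted p = 0.00638), *Phex* (1.39, SE 0.29, adjusted p = 0.0307) and *Matn3* (3.22, SE 0.66, adjusted p = 0.0296) rose among the 7 tested by edgeR, against 2.97% of all genes. DESeq2 called *Dmp1* and *Phex* and gave no adjusted p for *Matn3*. *Matn3* held 2, 0, 4 and 3 counts in controls and 21, 12 and 36 in mutants, and passed the filter through the mutant libraries alone. *Ibsp*, *Matn1* and *Epyc* overlapped, with log2 fold changes from 0.25 to 0.28. The defining osteoblast genes *Bglap* and *Bglap2* were at most 3.11 and 2.07 normalized counts in any library, and *Sp7* gave −0.55 (SE 0.25). Skin markers *Krt5* and *Krt14* were at most 8.28 normalized counts. Of the 3 tested skin markers, 0 were called by edgeR or DESeq2 or had an unadjusted p of 0.05 or less. Beside them, *Col17a1* and *Col7a1* were called in alternative analyses only. These were the filter of 10 counts in all 7 libraries for *Col17a1* and both analyses by run of library numbers for *Col7a1*. In the same libraries the astrocyte gene *Gfap* rose (1.95, SE 0.10, adjusted p = 7.4e-05, edgeR) and 2 of 6 oligodendrocyte markers, *Mbp* and *Mag*, fell by 0.53 and 0.54 on the log2 scale.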

How the data were processed

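Per the labels and the study's methods, TruSeq libraries of total forebrain RNA were sequenced as single-end reads, trimmed with cutadapt 1.9.1, aligned with Bowtie2 2.2.9 to the mouse transcriptome (Ensembl release for GRCm38) and quantified with RSEM 1.2.31. The authors deposited RSEM expected counts per gene, without normalization; their table of the genotype comparison holds fold changes and p-values, from which gene symbols alone were taken. RSEM shares reads among genes, so close copies are uncertain: 36-base words shared with other genes made up at most 5.22% of a member (*Col9a3*), and strandedness is not given in the sources used here. The columns name a genotype and number each library, so sex and RNA integrity could not be assigned and 0 columns were left unused.

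Expected counts were rounded, genes were kept if 3 or more libraries held 10 or more counts, and genotypes were compared with edgeR 4.0.16 (TMM, quasi-likelihood F-test, no covariate) in R 4.3.3, with Benjamini-Hochberg adjustment over all genes tested at 0.05. Standard errors are the log2 fold change over the root of F. Alternatives used DESeq2 1.42.0, limma 3.58.1 (voom), other scalings and filters, and fewer libraries. No 2 libraries of a genotype agreed within sampling noise (chi-square per degree of freedom 10.2 to 73.3). Levels per kb divide CPM by the union of exons. The fit was tested on simulated data. The members, classes and lists were chosen with earlier results of these data known. Genes were named if they were called, had an unadjusted p of 0.05 or less, led their class in level or belonged to types I, IV, VI or IX; list genes were named if called, or as values beside a result.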

Additional observations from a re-analysis of the deposited data

How the results depend on the processing

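No analysis reversed a collagen or pathway call. With DESeq2, 10 collagen genes were called higher and 3 lower, with 19 pathway genes higher, 1 lower and 1734 of all genes called, against 5, 1, 8, 0 and 954 by edgeR. When the fit held a term for the runs of library numbers, the counts were 15, 3, 21, 3 and 2205, and all 6 collagen genes called by edgeR were among them. In libraries 10 to 13 alone, 13 collagen genes were called higher and 1 lower (*Col19a1*, while *Col8a1* was not called), with 13 pathway genes higher, 0 lower and 1858 genes called in all. Without a filter on low counts 0 collagen genes were called lower by edgeR, while *Col8a1* had an adjusted p of 0.0598. Leaving out 1 library at a time gave 1 to 5 collagen genes higher, 0 to 1 lower, 2 to 8 pathway genes higher, 0 to 1 lower, 302 to 971 genes in all and a median collagen log2 fold change of 0.18 to 0.37. Without mutant library 13 the counts were lowest, and without mutant library 5 the median was 0.18. The cause of these differences was not tested, beyond fewer libraries in the fits that left some out. The median collagen level was 0.980 CPM per kb of exon and 1.17 per kb of the longest transcript, by which *Col1a2* and not *Col1a1* led the fibril-forming genes. Where 10 counts were required in all 7 libraries, *Col10a1* was not tested. Limma-voom, RLE and upper quartile scaling called the same 6 collagen genes. For single collagen genes, 580 alternative values kept the direction and side of the threshold, 30 passed it, 28 fell short of it and 21 changed sign, none of them called by edgeR in all 7 libraries. *Col8a2* was 0.031 by limma-voom and 0.0047 with upper quartile scaling, and *Col2a1* was −0.48 in libraries 10 to 13. Leaving out 1 library gave log2 fold changes from −0.39 to 0.31 for *Col2a1*, −0.12 to 0.31 for *Col4a3*, −0.20 to 0.13 for *Col8a2*, −0.098 to 0.14 for *Col9a3*, −0.35 to 0.12 for *Col14a1*, −0.036 to 0.28 for *Col16a1*, −0.065 to 0.37 for *Col22a1* and −0.097 to 0.20 for *Col26a1*. Among pathway genes that were not called, the sign changed in 27 values. These were −0.0068 for *Pcolce* by limma-voom, 0.019 for *Serpinh1* with upper quartile scaling and, with the run as a covariate, −0.0074 for *Adamts3*, −0.019 for *Pcolce* and −0.0047 for *Timp3*. In libraries 10 to 13 they were −0.12 for *P3h2*, −0.066 for *Adamts3*, −0.20 for *Pcolce*, −0.031 for *Mmp2* and −0.011 for *Timp3*. Without 1 library the rest ranged from −0.15 to 0.038 for *P3h1*, −0.031 to 0.016 for *Serpinh1*, −0.0020 to 0.11 for *Mia3*, −0.12 to 0.084 for *Adamts3*, −0.12 to 0.14 for *Pcolce*, −0.034 to 0.21 for *Pcolce2*, −0.015 to 0.14 for *Mmp2*, −0.15 to 0.041 for *Mmp15*, −0.020 to 0.046 for *Timp3* and −0.72 to 0.12 for *Ogn*. No paired analysis was possible because the columns carry a library number and no replicate number. Depth limited the low members, as *Col10a1* held 2 reads in control library 10, and with 4 and 3 pools the two-sided exact test used for chain ratios could not go below 0.0571.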
